A study of Rattus norvegicus with 8 samples.

Results

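The genes described here encode the proteins of the cytosolic ribosome. They were chosen by symbol, as probe sets of a rat expression array whose platform symbol begins with Rpl, Rps or Rplp directly followed by a digit, without the S6 kinases, and each gene was read on the probe set with the highest mean log2 signal over 8 arrays. This gave 43 genes of 10420 that the array reads with a probe set of their own: 28 of the large subunit, 11 of the small subunit and 4 paralogues (Rpl3l, Rpl7l1, Rps27l and Rps4y2). A further 34 probe sets list 2 to 6 symbols each, at least 1 of them ribosomal, and are described without a gene name. The cells were hepatocytes, the parenchymal cells of the liver, isolated from 4 rats and kept overnight on collagen. Of the cultures of each rat, 1 was exposed to cadmium chloride (4 µM, 3 h) and 1 stayed in medium alone, so both groups share the isolation and the culture. The labels give no strain, age or sex of the rats. Each of the 4 cadmium and 4 control RNA samples was read on 1 Affymetrix RAE230A array as MAS5 signals, a linear brightness per probe set.

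As background, the ribosome has a small subunit, which decodes the messenger RNA, and a large subunit, which joins amino acids and passes the new chain through an exit tunnel. Messenger RNAs of ribosomal proteins are abundant and long-lived in mammalian cells, and most begin with a C followed by a run of pyrimidines (C or T in the gene), the terminal oligopyrimidine or TOP motif. The kinase TOR, through LARP1 and other factors, controls how actively such messengers are translated, often with little change in their amount. The array measured messenger amounts only, not translation or protein.

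The annotated starts are shown first, since the TOP motif is the sequence feature that this family is known for. Each window holds 30 bases, 10 before the annotated start of the gene and 20 from the start on, 5′ to 3′ on the gene's own strand, from RefSeq on the rat assembly GRCr8. Capitals mark the unbroken run of C and T letters that includes the start base. The first 6 are core ribosomal protein genes with such a run, the next 4 are core genes with a run under 5 letters or none, and the last 4 are the paralogues.
Rps23, chr2:23814507-23814536, plus strand: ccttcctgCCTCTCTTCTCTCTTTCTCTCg
Rps24, chr16:96507-96536, plus strand: ggTCCTCTTTTCCTCCTTTacagctcgggc
Rpl4, chr8:73566467-73566496, plus strand: TCTTCCTTTTCCTgtgggagcagccgggta
Rpl37a, chr9:81748081-81748110, plus strand: cccgttgcgTCTCTTCCTCTTCgggcttgg
Rplp0, chr12:46718371-46718400, minus strand: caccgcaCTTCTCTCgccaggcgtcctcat
Rpl39, chrX:121195877-121195906, minus strand: taatcgcgTTCTTCCggcctgtcctttctc
Rpl5, chr14:1995206-1995235, minus strand: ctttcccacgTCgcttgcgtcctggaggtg
Rps6, chr5:106420521-106420550, minus strand: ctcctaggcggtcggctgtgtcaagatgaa
Rpl11, chr5:153560783-153560812, minus strand: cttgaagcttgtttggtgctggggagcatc
Rpl18, chr1:105325260-105325289, plus strand: acctggtctagcaggaggcgccatcatggt
Rps4y2, chr4:183000903-183000932, plus strand: cagCTCTCCTCactcgcttgtgctctggga
Rpl7l1, chr9:21695708-21695737, plus strand: cagatgcattgtgggaagcctttaactcgt
Rps27l, chr8:76443648-76443677, plus strand: ttcatttgtcattatttgtggtgtccagag
Rpl3l, chr10:14258436-14258465, plus strand: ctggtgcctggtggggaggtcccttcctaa

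A run of at least 5 C or T letters over the start base, read on the sense strand only, was present in 19 of the 38 genes that matched the promoter table (50%). It was present in 18 of 34 core genes (52.9%), in 1 of 4 paralogues (Rps4y2) and in 4002 of 33465 promoters of all genes (12.0%). Rpl23a, Rpl27, Rpl30, Rpl7 and Rps29 had no match in the table. The run was defined after the sequences had been read, and the annotated start need not be the start used in these cells. A run can also lie mostly before the start base, as in Rps4y2, where it ends on that base. The count is therefore not a count of TOP motifs. The run length varied among the printed genes: 21 letters in Rps23, 17 in Rps24, 13 in Rpl37a, 7 in Rpl39 and 2 in Rpl5.

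None of the ribosomal protein genes passed the test for a difference between cadmium and control cells. Of the 43 genes, 41 were bright enough to be tested, and 0 of the 41 were called higher or lower, against 5.15% of all 9519 tested probe sets (2.86% called higher and 2.29% lower). The test was limma on log2 signals with the rat as a block, and a call needed a Benjamini-Hochberg adjusted p under 0.05 over all tested probe sets. At an unadjusted p under 0.05 there were 3 genes, Rpl39, Rps4y2 and Rpl23a, all lower after cadmium, against 20.4% of all tested probe sets. Without the rat in the fit the count was again 0 of 41, against 3.53% of all tested probe sets. At an adjusted p under 0.1 it was still 0 of 41, against 8.88%. The cadmium and control signals overlapped in all 41 genes, whereas in 11.5% of tested probe sets they did not.

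The size of the differences was small as well as their count. The median log2 change of the 41 genes, cadmium minus control, was 0.00, with 22 genes higher and 19 lower by their means. For comparison, the median over all tested probe sets was -0.06. The central 80% of the 41 genes lay between -0.12 and 0.07 on the log2 scale. The 95% confidence interval of the change lay within a 1.3-fold difference in either direction for 38 of the 41 genes, the exceptions being Rpl39, Rpl37a and Rps4y2. Of all 9519 tested probe sets, 2713 had an interval within that bound. Among the brightest 10% of tested probe sets, where 37 of the 41 genes lay, it was 709 of 952. The replicates were tight: the median residual SD of the 41 genes was 0.0721 on the log2 scale, against 0.181 for all tested probe sets.

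**Figure D1:**
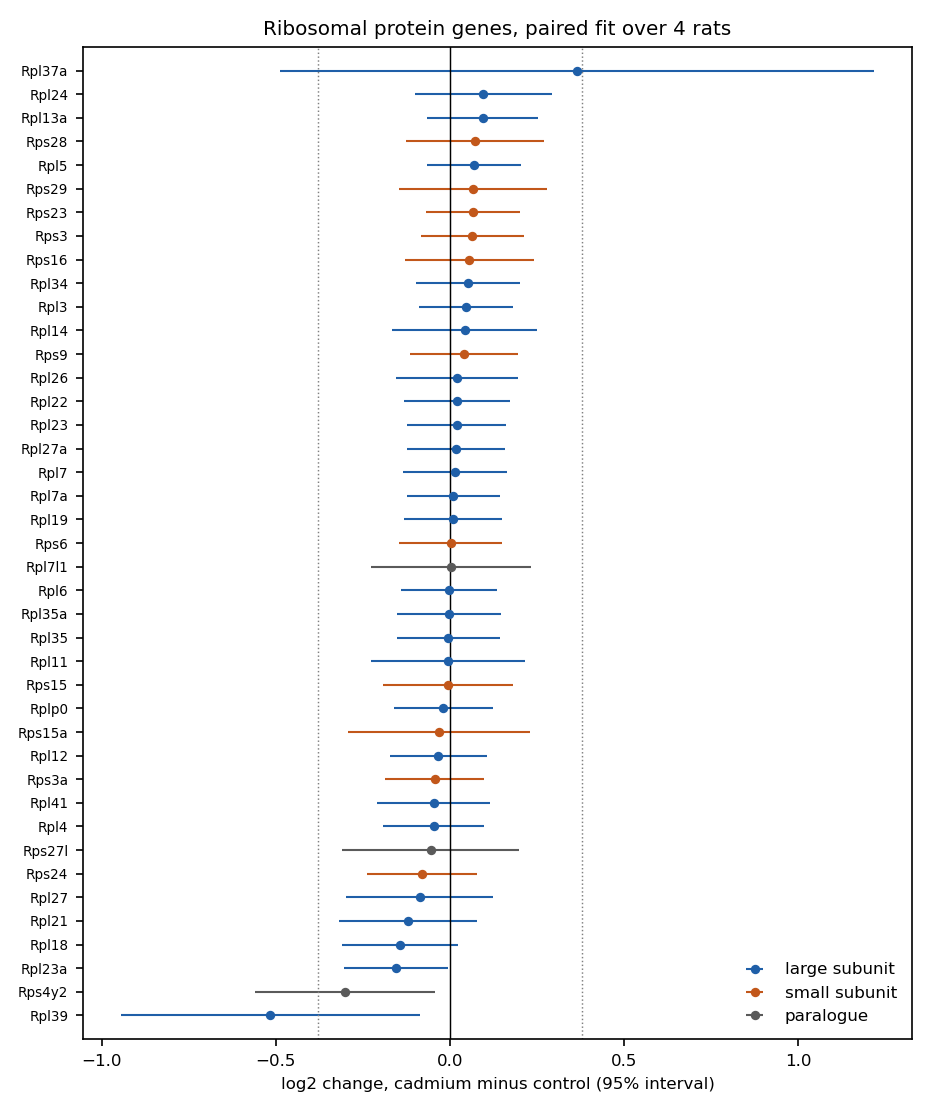
Log2 change of each of the 41 tested ribosomal protein genes, cadmium minus control (points, paired limma fit), with its 95% confidence interval (bars), over 4 rats. Dotted lines mark a 1.3-fold difference, and 38 of the 41 intervals stay between them; those of Rpl37a and Rpl39 are the widest.

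These probe sets were bright. Of the 41 genes, 37 lay among the brightest 10% of tested probe sets (952 probe sets, with a mean signal above 2325). Among those 952, 7.04% of probe sets were called, 61 higher and 6 lower, the median log2 change was 0.00 and the median residual SD was 0.112. The 37 ribosomal protein genes among them had 0 calls and a median residual SD of 0.0617. At an unadjusted limma p under 0.05 there was 1 of the 37, against 18.7% of the 952. Signals of different probe sets depend on their probes, so brightness gives no order of messenger amounts between genes. The highest ribosomal protein signal on an array was 22940 to 27261 in cadmium cells and 22318 to 26764 in control cells. The brightest probe set of any gene reached 32696 to 45526 on cadmium arrays and 30923 to 43690 on control arrays. Whether differences at this brightness are compressed was not tested.

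**Figure D2:**
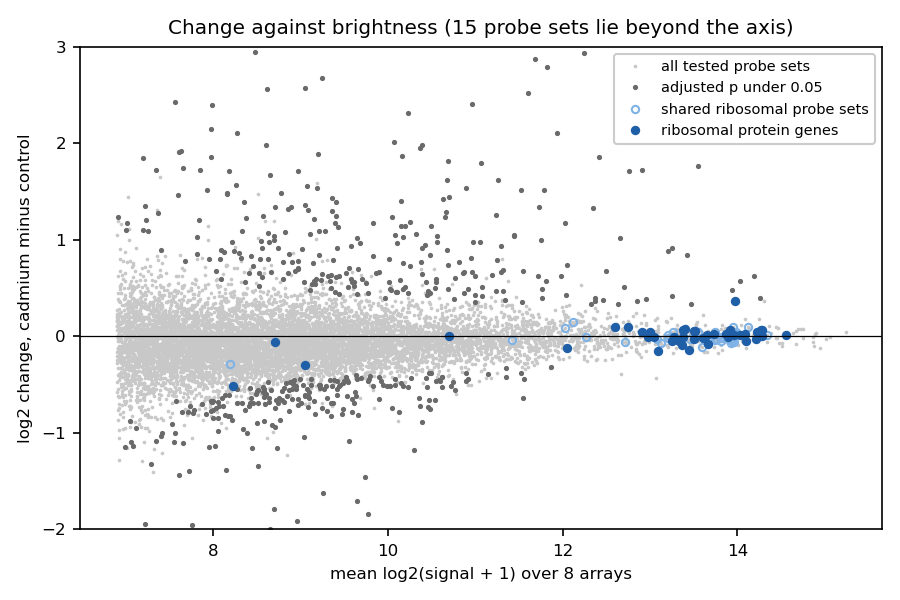
Log2 change, cadmium minus control, against the mean log2(signal + 1) over 8 arrays for all 9519 tested probe sets (grey), those with an adjusted p under 0.05 (dark grey), the 41 ribosomal protein genes (filled blue) and the 34 ribosomal probe sets with several symbols (open blue). Most ribosomal probe sets sit at the bright end near 0, and none is among the called ones. 15 probe sets lie beyond the axis.

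Rpl7a, a large subunit protein, had the brightest probe set of the family. Its signals in rats 1 to 4 were 22940.3, 23193.8, 23647.3 and 27261.2 after cadmium, against 22318.3, 24473.6, 22892.7 and 26763.5 in controls. Rat 4 was highest in both groups, which overlapped throughout, and the log2 change was 0.01 ± 0.059 (SE). For Rps6, the small subunit protein that S6 kinases phosphorylate, the cadmium signals were 21166.9, 19837.8, 19093.9 and 19543.4, against 19383.1, 19307.7, 19665 and 21174.5 in controls. It was higher after cadmium in rats 1 and 2 and lower in rats 3 and 4, with a log2 change of 0.00 ± 0.065 and a 95% interval of -0.15 to 0.15 (limma adjusted p = 0.990).

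Rpl5 and Rpl11 form, with the 5S ribosomal RNA, a particle of the large subunit that in mammalian cells binds and restrains MDM2 when ribosome assembly is disturbed. Rpl5 had 15117.9, 15847.9, 15333.6 and 16978.9 in cadmium cells of rats 1 to 4, against 14479.5, 15219.1, 14721 and 15849 in control cells. It was higher after cadmium in 4 of 4 rats by a small and even margin, 0.06, 0.06, 0.06 and 0.10 on the log2 scale, and the mean change of 0.07 ± 0.059 did not pass the test (adjusted p = 0.559). Rpl11 had 10193.4, 10360.4, 11678.3 and 10398.9 in cadmium cells, against 10321.1, 8414.7, 11520.3 and 13017.4 in control cells. Its differences ran in opposite directions in rats 2 and 4 (0.30 and -0.32), around a mean of -0.01 ± 0.097.

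Rplp0 and Rpl12 form the base of the stalk to which translation factors bind. Rplp0 had 12665.9, 12962.5, 11837 and 12139 in cadmium cells, against 12352.9, 13362.1, 11731 and 12870.1 in control cells, a log2 change of -0.02 ± 0.062. Rpl12, named after its values were seen, changed by -0.03 ± 0.061. Both groups overlapped for each gene. No value is given for the other stalk proteins, Rplp1 and Rplp2, nor for the ubiquitin fusion gene Rps27a, since none of the probe sets used here lists them alone.

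In the small subunit, Rps3, Rps9, Rps15 and Rps23 lie along the messenger channel and the decoding site. Rps23, a decoding centre protein, had 20806.7, 20898.9, 19401.5 and 20557.5 after cadmium, against 19491.8, 20313.8, 17874.4 and 20392.3 in controls. Along with Rpl5 it was 1 of 2 genes higher in 4 of 4 rats, which is to be read against 9.91% of all tested probe sets, and its log2 change was 0.07 ± 0.059 (adjusted p = 0.580). Rps3, which also has a known role in DNA repair, had 11570.6, 11017.5, 9896.5 and 11116.7 after cadmium, against 10346.2, 10450.5, 9693.5 and 11225.1 in controls. It was higher in rats 1 to 3 and near its control in rat 4, with a log2 change of 0.06 ± 0.065. Rps9 and Rps15, chosen after their values were seen, changed by 0.04 ± 0.069 and -0.01 ± 0.082.

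Rps29, a zinc-binding small subunit protein, was the other of the 4 brightest genes beside Rpl7a, Rps6 and Rps23. It had 19951.6, 22264.1, 20938.2 and 17953.9 in cadmium cells, against 20250.1, 16442, 21760.2 and 19167.1 in control cells. Only in rat 2 was it higher after cadmium (0.44 on the log2 scale), and the mean change was 0.07 ± 0.093. Over the 11 small subunit genes the log2 changes ran from -0.08 (Rps24) to 0.07 (Rps28), with a median of 0.04 and 7 genes higher by their means. Over the 27 tested large subunit genes the median was 0.01, with 14 higher and 13 lower.

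The exit tunnel is lined by or opens beside Rpl4, Rpl39, Rpl23a, Rpl35 and Rpl26, among other proteins. Of these 5 genes, 2 (Rpl39 and Rpl23a) had an unadjusted limma p under 0.05, against 20.4% of all tested probe sets. The grouping was made with results known, and a difference between roles was not tested. Apart from Rpl39, these genes were named after their values were seen. Rpl39, a short tunnel protein and 1 of the 4 dimmest genes, had 178.2, 400.1, 289.5 and 189.1 in cadmium cells of rats 1 to 4, against 317.7, 343.3, 485.8 and 309.3 in control cells. It was lower after cadmium in rats 1, 3 and 4 and higher in rat 2, and the groups overlapped. Its log2 change of -0.52 ± 0.19, with a 95% interval of -0.95 to -0.09, was the largest fall of the 41 genes and did not pass the test (adjusted p = 0.170).

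Rpl23a, the protein at the tunnel mouth where the signal recognition particle docks, had 7766.5, 8250, 8109.7 and 9041.1 after cadmium, against 8422.8, 9313.6, 8663.2 and 10630.7 in controls. It was lower in 4 of 4 rats, with log2 differences of -0.12, -0.17, -0.10 and -0.23, although the groups overlapped because rat 4 was high in both. The mean change was -0.16 ± 0.065 (adjusted p = 0.226). Under quantile normalization between arrays it was the only 1 of the 41 genes called, at -0.27 on the log2 scale (adjusted p = 0.0479). Rpl4, Rpl35 and Rpl26 changed by -0.05 ± 0.064, -0.01 ± 0.065 and 0.02 ± 0.077.

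Rpl18, of the large subunit and named after its values were seen, had 9484.9, 10210.9, 11039.8 and 12004.6 in cadmium cells, against 9762.4, 12836.5, 11371.9 and 13404.2 in control cells. It was lower in 4 of 4 rats, chiefly in rats 2 and 4, with a log2 change of -0.14 ± 0.073 (adjusted p = 0.314). In all, 4 of the 41 genes were lower in 4 of 4 rats (Rpl18, Rpl23a, Rpl4 and Rps4y2), against 19.7% of all tested probe sets. Counting both directions, 6 of the 41 moved the same way in all 4 rats, against 29.6%.

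Rpl37a, a zinc-binding large subunit protein named after its values were seen, was the exception to the tight replicates. Its signals in rats 1 to 4 were 9095.9, 23954.6, 21522 and 23925.7 in cadmium cells, against 20667.9, 10396.7, 23325.9 and 8147.3 in control cells. The 8 arrays fell into 2 levels, with 3 low arrays (cadmium rat 1, control rats 2 and 4) and 5 high ones, and both levels occurred in both groups. The differences within rats were -1.18, 1.20, -0.12 and 1.55 on the log2 scale, around a mean of 0.36 ± 0.38 (adjusted p = 0.636). Without Rpl37a, the largest rise among the other 40 genes was 0.10 ± 0.086, in Rpl24, a large subunit protein at the subunit interface.

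**Figure D3:**
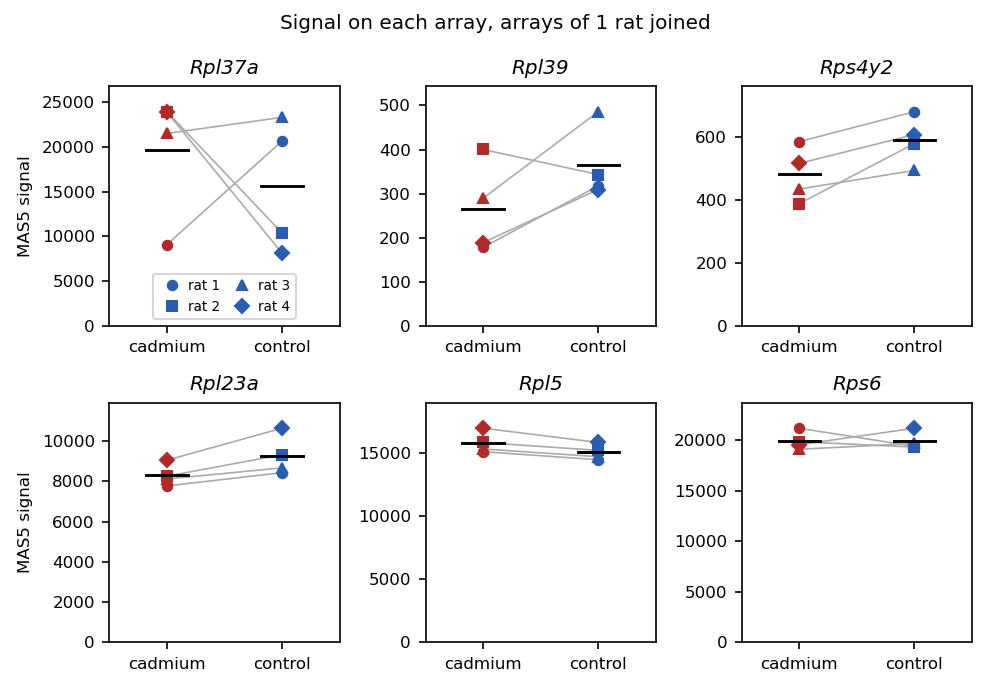
MAS5 signal of 6 ribosomal protein genes on each array, cadmium left and control right, with the 2 arrays of a rat joined and the group mean as a bar (4 arrays a group). Rpl37a sits at 2 levels in both groups, Rpl23a and Rps4y2 are lower after cadmium in every rat, and Rpl5 and Rps6 differ little.

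The paralogues are copies with restricted or separate roles. Rps27l, the relative of Rps27 whose gene is a p53 target in human cells, had 493.8, 515.9, 328.3 and 331.1 after cadmium, against 487.3, 510.9, 336.9 and 385.1 in controls. Rats 1 and 2 were higher than rats 3 and 4 in both groups, a split that cannot be told apart from the chip lot, since each pair of rats had its own lot, while the change with cadmium was -0.06 ± 0.11. Rpl7l1, a relative of Rpl7, had 1510.6, 1907.2, 1535.1 and 1736.6 after cadmium, against 1594.7, 1543.5, 1753.5 and 1771.6 in controls, and changed by 0.00 ± 0.10. Its second, dimmer probe set changed by -0.03 ± 0.11.

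Rps4y2, a relative of the small subunit gene Rps4x and named after its values were seen, had 584.7, 388.2, 434.4 and 515.6 in cadmium cells, against 679.6, 578.5, 493.2 and 607.1 in control cells. It was lower after cadmium in each rat, most in rat 2, and the groups overlapped. The log2 change was -0.30 ± 0.11 (adjusted p = 0.181). Rpl3l, the striated muscle form of Rpl3, was among the dimmest of all probe sets, with 8.1 to 50.8 after cadmium and 10.5 to 49.7 in controls, and was below the signal of 118 needed for testing. Ribosomal protein genes have many near-identical processed copies in rodent genomes, and which copies a probe set also reads was not examined.

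Rpl30 was the other gene below that limit, because its only probe set with 1 symbol is dim: 102.9, 63.5, 87 and 54.8 after cadmium, against 42.7, 52.9, 112.2 and 104.3 in controls. Its direction differed between rats. For 4 genes a second probe set was present. The dimmer probe set of Rpl7 changed by 0.27 ± 0.16 (adjusted p = 0.381) and the brighter one by 0.01 ± 0.065.

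The dimmer probe set of Rps24, chosen after its values were seen, was the 1 ribosomal probe set whose groups did not overlap. It had 18.5, 31, 39.3 and 34.7 in cadmium cells, against 58.2, 86.5, 67.2 and 102.6 in control cells, all below the limit for testing. In a fit of all 15866 probe sets with no lower limit, where 1.97% were called, its log2 change was -1.34 ± 0.36 (adjusted p = 0.125). The bright probe set of Rps24 had 12805.8, 12979, 12216.8 and 12466.4 in cadmium cells, against 14487.2, 13878.3, 11456.8 and 13769.4 in control cells. It overlapped between groups and changed by -0.08 ± 0.070.

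The 34 ribosomal probe sets with several symbols gave the same count. All 34 were tested and 0 were called, against 5.15% of all tested probe sets. At an unadjusted limma p under 0.05 there were 0, against 20.4%, and the lowest adjusted p was 0.317. Their log2 changes ran from -0.29 to 0.15 with a median of -0.02, and for 33 of the 34 the 95% interval lay within a 1.3-fold difference. Of these probe sets, 33 lay in the brightest 10%.

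The median difference of the family shifted slightly between rats. For the 41 genes it was 0.02 in rat 1, -0.01 in rat 2, 0.01 in rat 3 and -0.05 in rat 4 on the log2 scale. In rat 4, 16 of the 41 genes were higher after cadmium, as were 4 of the 34 probe sets with several symbols, whose median there was -0.12. The brightest 10% of all tested probe sets had medians of 0.05, 0.02, 0.02 and -0.08 in rats 1 to 4. The limma test between rats called 0 of the 41 genes, against 1.75% of all tested probe sets; 2 genes, Rps27l and Rpl18, had an unadjusted p under 0.05, against 15.7%, and the lowest adjusted p was 0.141 (Rps27l, where rat and chip lot cannot be told apart).

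**Figure D4:**
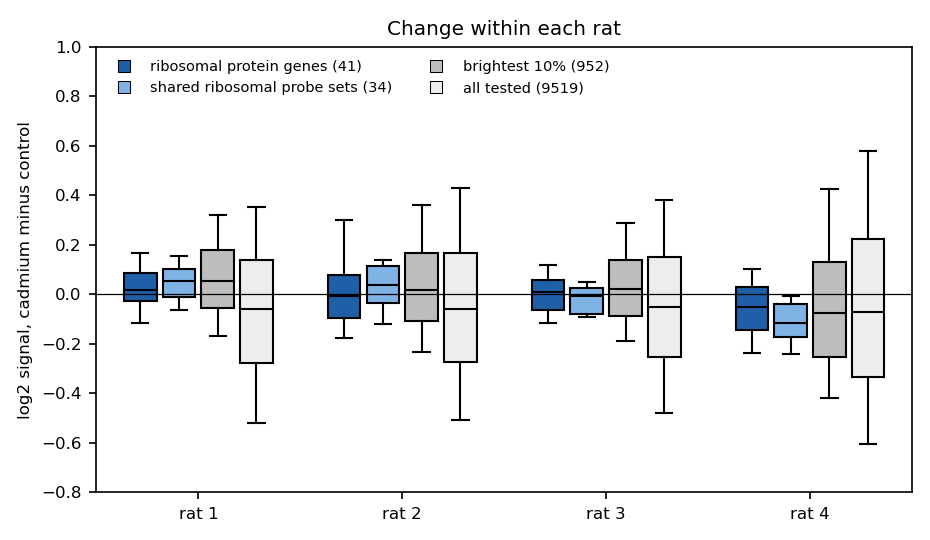
Log2 difference, cadmium minus control, within each rat for the 41 ribosomal protein genes, the 34 ribosomal probe sets with several symbols, the brightest 10% and all tested probe sets; boxes show medians and quartiles, and whiskers the central 80%. The ribosomal sets stay close to 0 in each rat and lie lowest in rat 4, as does the brightest 10%.

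The sign of so small a group shift depends on the scaling of the arrays. With the deposited scaling 22 of 41 genes were higher by their means. With quantile normalization 3 were higher and 38 lower, with a median of -0.09, and with each array centred on its median 34 were higher and 7 lower, with a median of 0.08. The brightest 10% of all tested probe sets had medians of -0.08 and 0.08. The array medians were 180 to 186.4 on cadmium arrays and 192.2 to 197.25 on control arrays, which did not overlap.

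The family was also grouped by its start sequence, with no test between the groups. The 19 tested genes with a pyrimidine run of at least 5 letters over the start base had a median log2 change of 0.00. Of these, 9 were higher and 10 lower by their means. The 18 tested genes with a shorter run or none had a median of 0.01. Neither group held a called gene, against 5.15% of all tested probe sets called. An unadjusted limma p under 0.05 was found for 2 of the 19 (Rpl39 and Rps4y2) and 0 of the 18, against 20.4% of all tested probe sets. The SD of the changes over genes was 0.168 with a run and 0.0671 without. The largest changes of the family, in Rpl39 (-0.52), Rpl37a (0.36) and Rps4y2 (-0.30), all fall in the group with a run. Of these, Rpl37a and Rpl39 also had the widest intervals, and the SD was not computed without Rpl39, Rpl37a and Rps4y2. Measures that single genes move less did not show a larger spread with a run. The median absolute log2 change was 0.042 with a run and 0.051 without. The median residual SD was 0.0527 with a run and 0.0910 without. Among genes whose human counterparts are mutated in Diamond-Blackfan anaemia, an inherited failure of red cell production, 11 were tested, with a median of -0.01 and changes between -0.14 and 0.07.

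Genes around the ribosome were read from lists drawn up by function. Of the ribosomal proteins outside the symbol rule, Rpsa changed by 0.03 ± 0.075 and Rack1 by -0.09 ± 0.067, and neither was called. Of 13 tested translation factors and other genes with TOP messengers, 0 were called by limma, against 5.15% of all tested probe sets, and 2 had an unadjusted p under 0.05, against 20.4%. Their median log2 change was 0.04. The brightest of them, Eef1a1, the elongation factor that brings aminoacyl-tRNA to the ribosome, averaged 30967 ± 1007 after cadmium and 30229 ± 1394 in controls (SD, n = 4 each). Eef2, the factor that moves the ribosome along the messenger, averaged 10344 ± 380.2 after cadmium and 10083 ± 686.4 in controls.

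Of 44 tested ribosome assembly factors, 4 were called higher and 0 lower, against 2.86% and 2.29% of all tested probe sets. At an unadjusted limma p under 0.05 there were 10 of the 44, against 20.4% of all tested probe sets. The median log2 change of the list was 0.02, with 25 higher and 19 lower by their means, and without the rat as a block 3 were called. A difference between this list and the ribosomal proteins was not tested. Nop58, a core protein of the box C/D small nucleolar particles that guide ribosomal RNA methylation, had 4110.1, 4201, 2972.1 and 3933.9 after cadmium, against 2767.1, 2569.9, 1934.4 and 2216 in controls. The groups did not overlap, and the log2 change was 0.68 ± 0.079 (adjusted p = 0.00174).

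Gnl3, the nucleolar GTPase nucleostemin, had 2525.7, 2968.4, 2015.6 and 3082.7 after cadmium, against 1656.7, 1267, 1394.8 and 1669.6 in controls, a log2 change of 0.81 ± 0.12 without overlap (adjusted p = 0.00671). Brix1, a large subunit assembly factor, rose by 0.73 ± 0.13 (adjusted p = 0.0147). Gar1, of the box H/ACA particles that guide pseudouridylation, rose by 0.59 ± 0.12 (adjusted p = 0.0281), a call lost without the rat as a block (adjusted p = 0.114). Each of the 4 was higher in 4 of 4 rats. Nop58 and Gnl3 were called without any 1 of the rats, and among rats 3 and 4 alone neither was (adjusted p = 0.124 for Nop58 and 0.171 for Gnl3). Brix1 was not called without rat 1 (adjusted p = 0.0726) or rat 3 (0.0561), and Gar1 was not called without rat 1 (0.120), rat 2 (0.0907) or rat 3 (0.0564). Over 23 alternative settings the call was lost in 7 for Nop58, 4 for Gnl3, 11 for Brix1 and 15 for Gar1.

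Of 17 tested genes of TOR and S6 kinase signalling, 1 was called higher and 0 lower, against 5.15% of all tested probe sets called in either direction, with a median log2 change of -0.11. At an unadjusted p under 0.05 there were 6 of the 17, against 20.4%. Named after their values were seen, the 4 lower ones among them were Tsc1 (-0.52 ± 0.15), Mtor (-0.38 ± 0.13), Eif4ebp2 (-0.32 ± 0.10) and Rptor (-0.27 ± 0.10), none past the adjusted threshold. Eif4ebp1, also named after its values were seen, went the other way. It was higher in 4 of 4 rats (0.27 ± 0.078, limma adjusted p = 0.0966). The called gene was Rheb, the small GTPase that activates TOR complex 1, with 6341.7, 5547.8, 5222.7 and 5867.6 after cadmium against 4934.9, 4711, 3827.4 and 4834 in controls. It rose by 0.33 ± 0.072 without overlap (adjusted p = 0.0363), a call lost without the rat as a block (adjusted p = 0.134) and without rat 1 (0.144), rat 2 (0.107) or rat 3 (0.193). Of 71 tested genes for the mitochondrial ribosome, 1 was called higher and 1 lower, against 5.15% of all tested probe sets called. By their means 16 were higher and 55 lower. Over all 9519 tested probe sets 3678 were higher and 5841 lower, with a median log2 change of -0.06. Mrps6 rose by 0.58 ± 0.11 (adjusted p = 0.0257) and Mrpl42 fell by 0.46 on the log2 scale (SE 0.10, adjusted p = 0.0364), with a list median of -0.08. Both calls were lost without the rat as a block (adjusted p = 0.0615 for Mrps6 and 0.0597 for Mrpl42). Without rat 1 or rat 2 neither was called (adjusted p = 0.101 and 0.125 for Mrps6, 0.108 and 0.136 for Mrpl42), nor was Mrpl42 without rat 3 (0.0927).

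**Figure D5:**
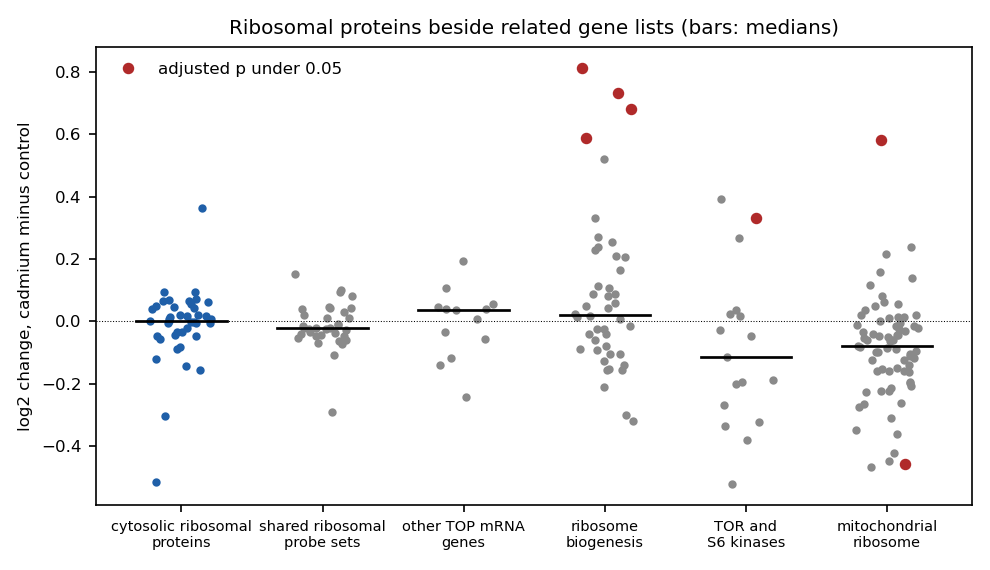
Log2 change, cadmium minus control, of each tested gene or probe set in the cytosolic ribosomal protein family, its probe sets with several symbols and 4 related lists (points), with the list median as a bar; red points have an adjusted p under 0.05. Neither cytosolic set holds a red point, while ribosome biogenesis holds 4, all above 0.

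The cultures carried the markers of their label. Of 8 hepatocyte markers, 7 were measured and all 7 were bright enough for testing, with a summed signal of 96396 to 109912 in cadmium cells and 92451 to 107536 in control cells and none called (lowest adjusted p 0.517; 0 at an unadjusted p under 0.05). Kupffer cell markers summed to 1447 to 3686 after cadmium and 1597 to 3212 in controls, and 3 of 7 measured were tested. The brightest, Cd68, named after its values were seen, differed between rats (limma adjusted p = 0.000638). It had 708.5 to 2890.9 after cadmium and 736.5 to 2380.2 in controls, and rat and chip lot cannot be told apart. Bile duct markers summed to 1127 to 2699 after cadmium and 1812 to 2900 in controls, and 1 of 4 measured was tested. None of these few tested markers was called by limma (0 at an unadjusted p under 0.05). No endothelial or blood marker reached the limit for testing. Of the stellate and fibroblast markers, 3 of 8 were tested, and the list summed to 1203 to 1819 after cadmium and 1590 to 2379 in controls. Reln was lower after cadmium (-1.09 ± 0.14, adjusted p = 0.00331), a call lost without the rat as a block (adjusted p = 0.0933), while Acta2 changed by 0.06 ± 0.19 and Col1a1 by 0.30 ± 0.20. Their part in the ribosomal values was not tested, and in whole cultures fewer cells of a type and less RNA per cell cannot be told apart. The ratio of the 3′ to the 5′ actin probe set was 1.43 to 1.63 on cadmium arrays and 1.38 to 1.79 on control arrays. All cadmium arrays were washed in 1 fluidics module and all control arrays in another, so module and treatment cannot be told apart.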

How the data were processed

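The deposited table holds 1 linear intensity per probe set and array, made by the authors with MAS5 per the submitters' processing notes. The scaling target is not stated in the labels, and no detection calls were used; the mean without the lowest and highest values was about 500 on each array. Array setting files, per the file headers, served only to find batches: 2 chip lots (rats 1 and 2, rats 3 and 4). Symbols came from the platform annotation (12792 probe sets with 1 symbol, 303 with several, which were not named).

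Signals were used as log2(signal + 1). The dimmest 40% by mean over 8 arrays (signal under 118) and 57 control probe sets were left out, leaving 9519. The pseudocount makes changes of dim genes look smaller. The two-sided test was limma 3.58.1 under R 4.3.3 (lmFit, then eBayes with a trend in the variance), adjusted over all tested probe sets, with the rat as a block, since the labels tie each number to a rat. Deviations from the mean of the group, compared across probe sets, correlated at 0.35, 0.251, 0.475 and 0.196 within rats 1 to 4, against at most -0.01 between different rats. Deviations cancel within a group, so positive values within rats pull down those between rats, which are no separate support for the pairing. The fit was tested on simulated data. The same fit tested differences between rats. Arrays have no read depth; their number, 4 a group, limits the precision.

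Genes named by rule were those past the threshold, the 4 brightest and 4 dimmest of the family, Rplp0, Rps6, Rpl5, Rpl11, Rps3, the paralogues whose symbol ends in l or l1, and of each related list up to 4 called genes or else the 2 brightest. Others are marked as named after their values were seen. The genes, lists and tests were chosen with earlier results of these data known. Alternatives were no block, a pseudocount of 32, no filter or 60%, arrays centred on their median or quantile normalized, no trend in the variance, probe sets of a gene averaged, an adjusted threshold of 0.1, single rats, lots or arrays left out.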

Additional observations from a re-analysis of the deposited data

Results flagged for a closer look

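Among 86 groups of 4 ribosomal protein signals (43 genes, cadmium or control), 2 held an array far from the other 3, where chance flags about 1 in 20 groups. For Rpl37a, the cadmium array of rat 1 was lowest, at 9095.9 against 21522 to 23954.6 in the others, a gap of 0.889 of the group's range. For Rpl11, the cadmium array of rat 3 was highest, at 11678.3 against 10193.4 to 10398.9, a gap of 0.853 of the range.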

How the results depend on the processing

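Over 23 alternative settings, 0 of the 41 genes were called higher in any, and 1 was called lower in 1 of them (Rpl23a with quantile normalization). With no replicate block the median log2 change was 0.00198 and the count was again 0. As neither fit held a call among the 41 genes, they cannot show whether a call would depend on the pairing. The median was -0.0900 with quantile normalization, 0.0805 with centred arrays, and 0.0481 without control replicate 4 and no replicate block. It ran from -0.0147 to 0.0292 without single rats, from -0.0147 to 0.0481 without single arrays, and was 0.0166 within the lot of rats 1 and 2 and -0.0254 within that of rats 3 and 4. The threshold does not bear on the median. None of the 41 changes reversed as a call, which only a called gene could do. The sign of an uncalled change did differ between settings for some genes, as in Rpl11 (-0.15 to 0.14) and Rps6 (-0.09 to 0.08). For others, as in Rpl23a (-0.27 to -0.08), it did not. The test between rats stayed at 0 wherever it was run. Over all tested probe sets the count of calls, 272 higher and 218 lower, was 156 and 105 without the variance trend, 200 and 113 without the filter, 200 and 136 with no replicate block, 387 and 458 at an adjusted p under 0.1, and 366 and 119 with centred arrays. It was 180 and 60 without rat 1, 121 and 44 without rat 2, 156 and 47 without rat 3 and 309 and 290 without rat 4, so the background that the family is set against moves with single rats. Within a lot, which holds 2 rats, it was 184 and 112 (rats 1 and 2) or 77 and 10 (rats 3 and 4). The cause of these differences was not tested.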
